A study of Mus musculus with 6 samples.

Results

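The striatal transcription factors described here are 10 genes, Isl1, Ebf1, Foxp1, Foxp2, Meis1, Meis2, Pbx3, Rarb, Six3 and Zfp503. They were chosen by name, as regulators that are active in the developing striatum, out of 22651 genes in each table. The choice was made with earlier results of these data known. Counts of these factors set beside shares of all genes therefore describe the list and do not test it. All 10 were present in the 6 tables and all 10 passed the filter on low counts that kept 13969 genes for testing. Telencephalon, the front part of the brain that holds both cortex and striatum, was taken from mice at postnatal day 0 and sequenced as mRNA. The WT group (3 samples) was TSC1 flox/flox;Emx1 +/+ and the TSC1-KO group (3 samples) was TSC1 flox/flox;Emx1-cre/+, so both groups carry the floxed Tsc1 alleles and only the TSC1-KO group carries Cre. Cre expressed from the Emx1 locus in the embryonic dorsal cortex removes exons 17 and 18 of Tsc1, an inhibitor of mTOR signaling. The striatum arises from the ventral telencephalon, whereas Emx1 is expressed mainly dorsally.

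The striatum is made mostly of inhibitory projection neurons that are born in the lateral ganglionic eminence. One class projects directly to the output nuclei of the basal ganglia and expresses the dopamine receptor D1, and the other projects through the globus pallidus and expresses the dopamine receptor D2. Transcription factors divide the work of making them. Isl1 and Ebf1 are known for the direct class and Six3 for the indirect class, Meis1, Meis2 and Pbx3 are homeodomain proteins that bind DNA together, Foxp1 and Foxp2 are forkhead repressors, Rarb is a receptor for retinoic acid, and Zfp503 is a zinc finger protein of early striatal precursors. Several also act elsewhere: Foxp1 and Foxp2 are expressed in cortical neurons, and Isl1 in cholinergic neurons.

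The libraries held between 14119365 and 17772865 expected counts, and 3 counts corresponded to between 0.169 and 0.212 CPM, the count scaled to a common library size. Tsc1 itself was at 50.23, 31.99 and 28.42 TPM (transcript abundance corrected for length and depth) in WT replicates 1, 2 and 3 and at 27.09, 21.73 and 22.42 TPM in the TSC1-KO samples, with an adjusted p of 0.09998. That level covers the whole gene, the exons outside the deletion included, and all cells of the tissue. On the first principal component of all genes, with 47.7% of the variance, the WT samples lay at -7.43, -19.1 and -26.3 and TSC1-KO replicates 1 and 2 at 26.5 and 30.3. TSC1-KO replicate 3 lay at -3.95, between the groups, so the counts of called genes below are given with and without it. Replicate 3 was also the 1 sample of each group with Y-linked RNA: Ddx3y was at 64.25 TPM in WT replicate 3 and at 61.97 TPM in TSC1-KO replicate 3, and at 0 in the other samples. The striatal projection neuron genes Ppp1r1b and Gng7 were present in all 6 samples, the lowest levels being 42.17 and 81.20 TPM.

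All 10 factors had a lower fitted level in TSC1-KO than in WT. Isl1, Ebf1, Zfp503, Rarb and Six3 had mean TPM in TSC1-KO between 24.9% and 38.7% of the WT mean, Pbx3, Foxp2 and Meis1 were at 41.9%, 50.4% and 56.6%, Meis2 at 74.5% and Foxp1 at 92.9%. The median log2 fold change was -1.32 over the 10 factors and -0.00267 over all genes tested. Of all genes tested, 50.7% had a fitted value below 0. For 9 of the 10, all but Foxp1, every TSC1-KO sample was below every WT sample, a pattern that 10.3% of all genes tested showed. Because the samples are whole tissue, fewer striatal cells, less RNA of these genes per cell and a difference in the tissue taken cannot be told apart. The labels do not say how the telencephalon was dissected.

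The TSC1-KO samples differed in how far the factors were from WT. Leaving out Foxp1, the factors were at 3.94% to 72.5% of their WT means in TSC1-KO replicate 1 (median 20.7%), at 10.8% to 69.4% in replicate 2 (median 25.3%) and at 60.0% to 95.8% in replicate 3 (median 65.9%). TSC1-KO replicate 3 was the highest of its group for 9 of 10 factors, against 30.7% of all genes tested. WT replicate 3 was the highest WT sample for 9 of 10 factors as well, against 20.5% of all genes. The next ranges cover all 10 factors, Foxp1 included. Set against WT replicate 3, the other sample with Y-linked RNA, TSC1-KO replicate 3 had 40.1% to 94.7% of its level (median 60.5%). The means of TSC1-KO replicates 1 and 2 were 9.79% to 93.7% of those of WT replicates 1 and 2 (median 28.3%), the highest being Foxp1.

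With all 6 samples, 2 of the 10 factors, Foxp2 and Meis2, passed edgeR's quasi-likelihood test at an adjusted p below 0.05. Over all genes, 0.659% passed in this direction and 1.52% in either direction. At an unadjusted p below 0.05, 9 of the 10 were lower, against 8.93% of all genes. Without TSC1-KO replicate 3, 9 of the 10 passed the adjusted threshold and the median log2 fold change was -1.97, where 3.06% of all genes passed in this direction. That sample was the highest of its group for 9 of the 10, so leaving it out widens their difference. Leaving out WT replicate 1 instead gave 2 called factors. Leaving out WT replicate 2, WT replicate 3, TSC1-KO replicate 1 or TSC1-KO replicate 2 gave 0. Those fits called 29 to 37 of all genes in either direction. With Y-linked expression as a term in the fit, which keeps all 6 samples, 8 of the 10 passed, against 2.53% of all genes. Meis1 (adjusted p = 0.0527) and Foxp1 (adjusted p = 0.434) did not. The term was added after seeing the data and marks replicate 3 of each group. It cannot be told apart from any other property of those samples. In the 4 samples without Y-linked expression, a fit also added after seeing the data, 9 of the 10 passed, against 2.04% of all genes.

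**Figure D1:**
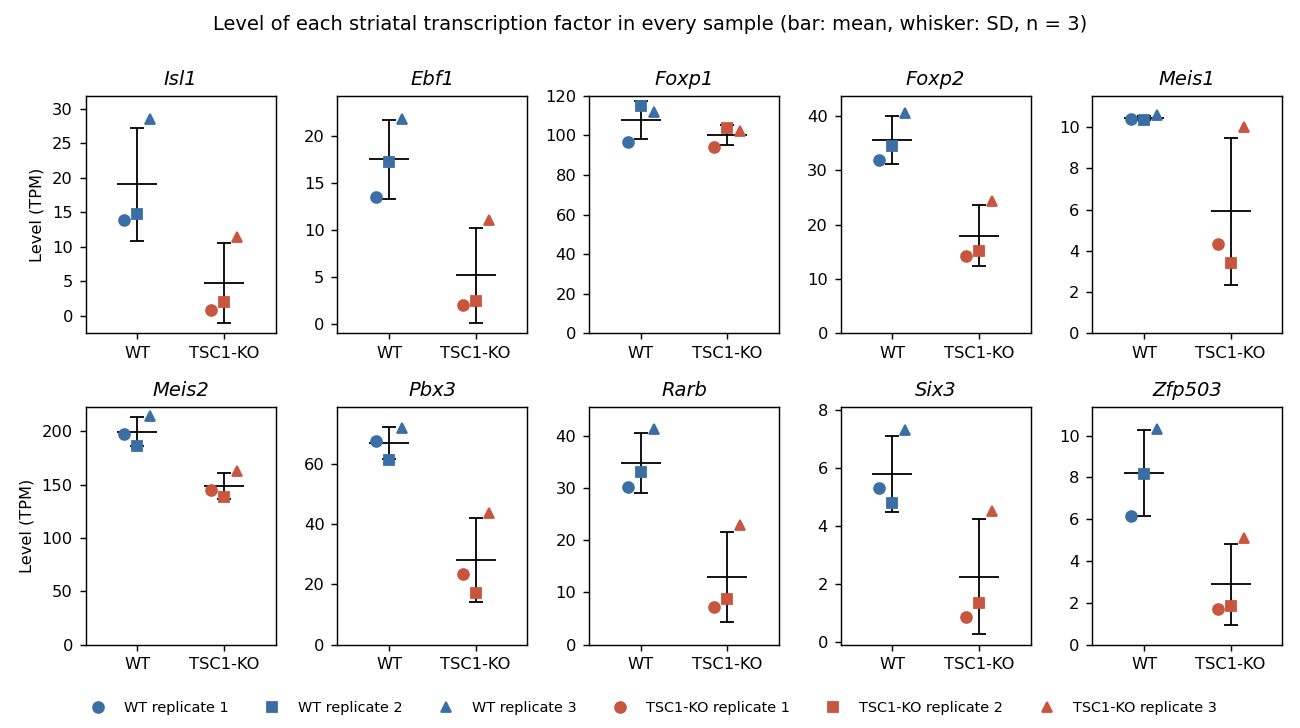
Level of each factor in TPM (vertical axis, linear) in the 3 WT and 3 TSC1-KO samples, with the mean as a horizontal bar and the SD as a whisker. TSC1-KO replicates 1 and 2 (circle and square) lie close together and replicate 3 (triangle) lies higher for every factor but Foxp1; the groups overlap for Foxp1 alone.

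In WT, levels ran from Meis2 (199.5 ± 13.7 TPM, SD, n = 3) through Foxp1, Pbx3, Foxp2, Rarb, Isl1, Ebf1, Meis1 and Zfp503 to Six3 (5.80 ± 1.32 TPM, n = 3). The WT ranges of neighbours in this order overlapped for Foxp2 and Rarb, for Isl1 and Ebf1, and for Zfp503 and Six3, and these pairs were not separated in level. The spread between WT samples was smallest for Meis1, with a coefficient of variation of 1.05%, and largest for Isl1, with 43.0%. In TSC1-KO it ran from 5.12% for Foxp1 to 122.7% for Isl1.

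Isl1, a LIM homeodomain factor needed for direct pathway neurons (chr13:116298270-116309688 in GRCm38.p6, the assembly behind mm10), was at 13.84, 14.75 and 28.45 TPM in WT replicates 1, 2 and 3, and at 0.75, 2.05 and 11.40 TPM in TSC1-KO replicates 1, 2 and 3. These levels rested on 199, 241 and 375 expected counts in WT and 10, 26 and 165 in TSC1-KO. The groups did not overlap, but TSC1-KO replicate 3 came within 2.44 TPM of the lowest WT sample. The fitted log2 fold change was -2.00 (SE 0.687, edgeR adjusted p = 0.175), and it did not pass the threshold. Without TSC1-KO replicate 3 it was -3.81 (SE 0.474, adjusted p = 0.00258). With the term for Y-linked expression it was -2.37 (SE 0.373, adjusted p = 0.00951).

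Ebf1, a helix-loop-helix factor of striatonigral neurons (chr11:44618100-45008096), showed the same ordering of samples. It was at 13.50, 17.32 and 21.83 TPM in WT and at 2.03, 2.49 and 11.07 TPM in TSC1-KO, so TSC1-KO replicate 3 had over 4 times the level of its 2 group mates. The log2 fold change was -1.75 (SE 0.520, adjusted p = 0.124) with all samples and -2.99 (SE 0.281, adjusted p = 0.000613) without TSC1-KO replicate 3.

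Six3, a homeodomain factor of the indirect pathway (chr17:85613608-85626191), was the factor with the lowest level. It had 5.31, 4.80 and 7.30 TPM in WT and 0.87, 1.34 and 4.52 TPM in TSC1-KO, on 17, 25 and 96 expected counts in the latter. The highest TSC1-KO sample was 0.28 TPM below the lowest WT sample, the narrowest gap of the 9 factors whose groups did not overlap. Its log2 fold change was -1.36 (SE 0.483, adjusted p = 0.183), and -2.42 (SE 0.301, adjusted p = 0.00254) without TSC1-KO replicate 3.

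Rarb, the retinoic acid receptor that is enriched in striatum (chr14:16430839-17082331), had 30.16, 33.16 and 41.31 TPM in WT and 7.17, 8.82 and 22.98 TPM in TSC1-KO. Zfp503 (chr14:21983959-21989601) had 6.17, 8.16 and 10.29 TPM in WT and 1.70, 1.83 and 5.09 TPM in TSC1-KO. In both genes the first 2 TSC1-KO samples were at about the same level and replicate 3 was over 2 times higher. The log2 fold change of Rarb was -1.44 (SE 0.373, adjusted p = 0.0925) with all samples and -2.17 (SE 0.190, adjusted p = 0.000605) without TSC1-KO replicate 3. For Zfp503 the corresponding values were -1.52 (SE 0.392, adjusted p = 0.0911) and -2.26 (SE 0.268, adjusted p = 0.00201). Rarb and Zfp503 each had the other as the nearest factor in pattern. Their root mean square difference was 0.108 log2 units over the 6 samples, after centring each gene on its own mean.

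**Figure D2:**
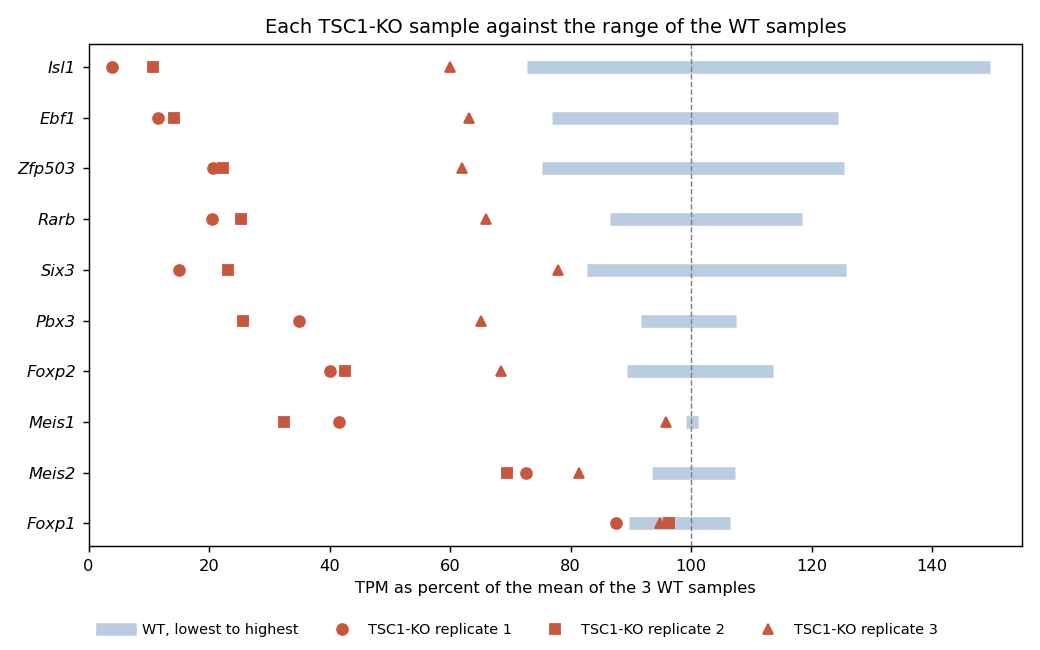
TPM of each factor in TSC1-KO replicates 1, 2 and 3 (points) as percent of the mean of the 3 WT samples (horizontal axis), with the range of the WT samples as a bar. For Isl1 the points lie at 3.94%, 10.8% and 60.0% of the WT mean, and for Foxp1 they lie within or close to the WT bar.

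The homeodomain factors that act in complexes differed among themselves. Pbx3 (chr2:34171457-34372045) had 67.42, 61.37 and 71.84 TPM in WT and 23.33, 17.11 and 43.60 TPM in TSC1-KO. All 3 TSC1-KO samples were well below the WT range, and the log2 fold change of -1.27 (SE 0.279) came close to the threshold at an adjusted p of 0.0607. It passed with DESeq2 (adjusted p = 0.0435), with limma on log2(TPM + 1) (adjusted p = 0.0447) and in edgeR without a filter on low counts (adjusted p = 0.0310), each of which called 3 of the 10 factors. These fits called 2.15%, 0.975% and 0.949% of all genes as lower in TSC1-KO.

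Meis2 (chr2:115861264-116067537), the factor with the highest level, had 197.9, 186.7 and 213.9 TPM in WT and 144.7, 138.5 and 162.5 TPM in TSC1-KO. It fell by 0.45 on the log2 scale (SE 0.0889, adjusted p = 0.0479), a small change with little spread within either group. Its paralogue Meis1 (chr11:18880428-19019651) had 10.42, 10.37 and 10.58 TPM in WT and 4.34, 3.40 and 10.02 TPM in TSC1-KO. TSC1-KO replicates 1 and 2 were at 41.5% and 32.5% of the WT mean of Meis1, whereas replicate 3 was 0.35 TPM below the lowest WT sample. The log2 fold change of Meis1 was -0.85 (SE 0.332, adjusted p = 0.220), and -1.48 (SE 0.162, adjusted p = 0.00135) without TSC1-KO replicate 3. Meis2 and Pbx3 without that sample were at -0.53 (SE 0.0869, adjusted p = 0.00951) and -1.77 (SE 0.142, adjusted p = 0.000435).

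Foxp2 (chr6:14901349-15441977), a forkhead repressor of striatal and deep layer cortical neurons, had 31.85, 34.57 and 40.51 TPM in WT and 14.26, 15.17 and 24.42 TPM in TSC1-KO. It fell by 1.001 on the log2 scale (SE 0.200, adjusted p = 0.0479), and by 1.30 (SE 0.130, adjusted p = 0.000850) without TSC1-KO replicate 3. Foxp1 (chr6:98925342-99522746), which is expressed in striatal neurons and in several cortical layers, had 96.57, 114.7 and 111.9 TPM in WT and 94.21, 103.7 and 102.3 TPM in TSC1-KO. Its groups overlapped, and the log2 fold change was -0.13 (SE 0.0919, adjusted p = 0.499). Foxp1 did not pass the adjusted threshold under any of the 16 other settings that were run, with log2 fold changes from -0.22 to -0.07. The value of -0.22, without WT replicate 1 (SE 0.0715, adjusted p = 0.119), was below an unadjusted p of 0.05.

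**Figure D3:**
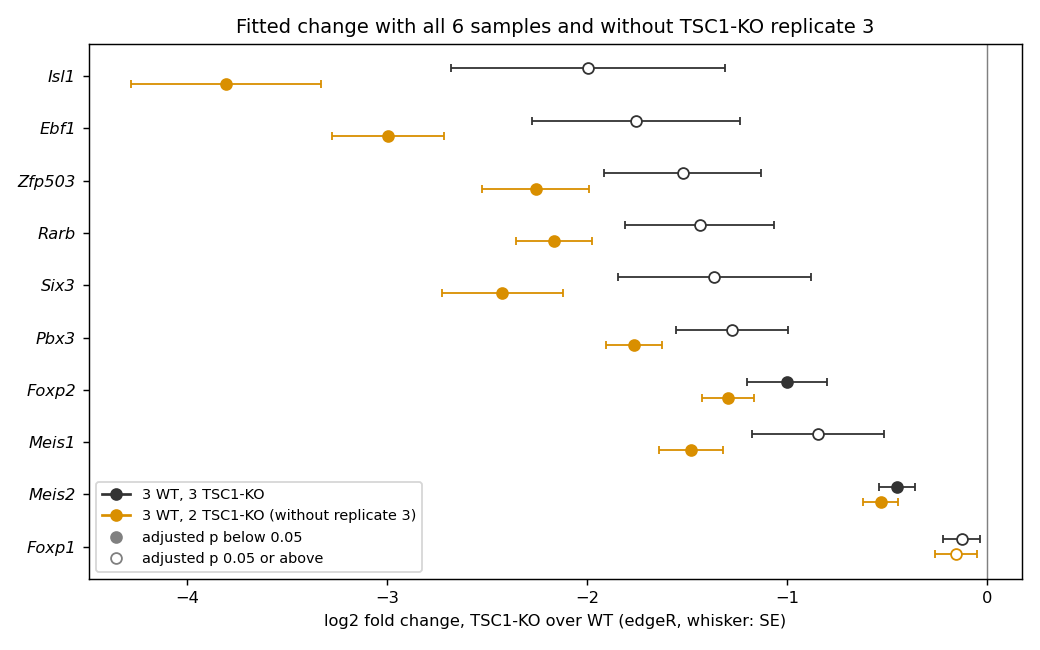
Fitted log2 fold change (TSC1-KO over WT, edgeR, horizontal axis) of each factor with its SE as a whisker, with all 6 samples (dark) and without TSC1-KO replicate 3 (orange); filled points have an adjusted p below 0.05. Filled dark points are Foxp2 and Meis2, and without the sample every factor but Foxp1 is filled.

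Pairs of factors from 1 family were compared within each library as the log2 ratio of their TPM. The ratio of Foxp2 to Foxp1 was -1.60, -1.73 and -1.47 in WT and -2.72, -2.77 and -2.07 in TSC1-KO, with means of -1.60 ± 0.132 and -2.52 ± 0.395 (SD, n = 3). All TSC1-KO values were below all WT values, and the difference of -0.92 had p = 0.1 in the exact two-sided permutation test, the smallest p that 3 samples against 3 allow. The ratio of Meis1 to Meis2 was -4.25, -4.17 and -4.34 in WT and -5.06, -5.35 and -4.02 in TSC1-KO. Here TSC1-KO replicate 3 was above every WT sample, and the mean difference of -0.56 was not separated from the spread between samples (exact permutation test, p = 0.4). These were the 2 families compared, and with a smallest possible p of 0.1 neither could pass 0.05.

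The other genes of the same families were also measured. Of 18 paralogues, 15 passed the filter, and 0 passed in edgeR, DESeq2 or limma, with 1 lower and 0 higher at an unadjusted p below 0.05 in edgeR. The count was also 0 without TSC1-KO replicate 3 and with the Y-linked term. Their median log2 fold change was -0.12, against -1.32 for the 10 factors and -0.00267 for all genes. Their summed level was 95.2%, 96.1% and 99.6% of the WT mean in TSC1-KO replicates 1, 2 and 3. Meis3 was at 65.6 and 66.7 TPM on average, Foxp4 at 49.2 and 45.2 TPM, and Pbx2 at 32.2 and 31.5 TPM in WT and TSC1-KO. Six5 was the 1 paralogue with every TSC1-KO sample below every WT sample (log2 fold change -0.51, SE 0.196, adjusted p = 0.215).

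**Figure D4:**
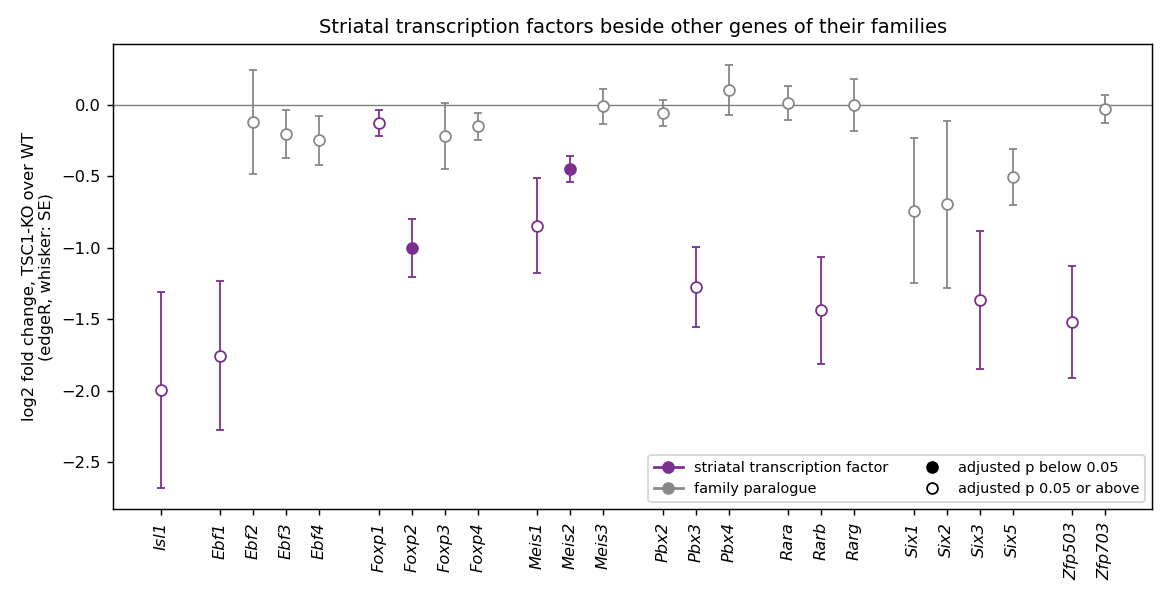
Fitted log2 fold change (TSC1-KO over WT, edgeR, vertical axis) with SE of the striatal factors (purple) and of tested paralogues of their families (grey); filled points have an adjusted p below 0.05. Paralogues of the EBF, FOXP, MEIS, PBX and RAR families lie near 0, while Isl1, Ebf1, Pbx3, Rarb, Six3 and Zfp503 lie below -1 and Foxp2 lies at -1.001.

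Promoter sequences were looked up in RefSeq (GRCm38.p6) for the factors, as the 250 bases before each annotated start. For 8 of the 10 factors at least 1 window was found, 11 windows in all; Foxp2 and Pbx3 had none. Both strands were searched for 5 letter strings: the retinoic acid response element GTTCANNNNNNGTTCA, the MEIS site TGACAG, the EBF site TCCCNNGGGA, the forkhead site TGTTTAC and the homeodomain core TAATTA, none of which contains another. Over 32851 windows of all genes, these occurred in 0.0670%, 15.9%, 0.779%, 3.17% and 4.84%. The following 4 windows are shown because they are those of the factor with the largest fitted difference (Isl1), of the retinoic acid receptor (Rarb), of the indirect pathway factor (Six3) and of the factor with the smallest difference (Foxp1, 1 of its 3 windows). They are written 5′ to 3′ along the gene, with matches in capitals.
Isl1 (chr13:116309689-116309938, minus strand): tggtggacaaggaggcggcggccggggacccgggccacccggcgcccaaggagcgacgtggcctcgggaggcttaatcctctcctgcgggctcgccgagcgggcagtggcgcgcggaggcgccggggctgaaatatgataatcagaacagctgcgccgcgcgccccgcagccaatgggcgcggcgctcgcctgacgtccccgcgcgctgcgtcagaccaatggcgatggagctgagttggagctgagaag
Rarb (chr14:16575477-16575726, minus strand): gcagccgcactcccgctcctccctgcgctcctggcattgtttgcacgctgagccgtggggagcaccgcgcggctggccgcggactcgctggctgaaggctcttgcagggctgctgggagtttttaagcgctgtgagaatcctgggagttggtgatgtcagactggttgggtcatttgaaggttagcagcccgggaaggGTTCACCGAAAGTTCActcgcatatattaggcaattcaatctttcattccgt
Six3 (chr17:85620584-85620833, plus strand): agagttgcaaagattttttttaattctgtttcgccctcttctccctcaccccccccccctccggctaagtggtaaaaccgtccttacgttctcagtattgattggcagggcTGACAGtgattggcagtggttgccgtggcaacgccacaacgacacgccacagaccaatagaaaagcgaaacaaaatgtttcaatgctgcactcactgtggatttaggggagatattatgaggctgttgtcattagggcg
Foxp1 (chr6:99266516-99266765, minus strand): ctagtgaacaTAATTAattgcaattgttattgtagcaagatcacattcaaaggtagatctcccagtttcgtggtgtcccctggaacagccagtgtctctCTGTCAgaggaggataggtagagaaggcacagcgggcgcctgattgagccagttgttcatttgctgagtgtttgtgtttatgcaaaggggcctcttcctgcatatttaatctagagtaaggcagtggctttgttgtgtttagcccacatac
The Rarb window holds the retinoic acid response element, the direct repeat known from this gene, with its first base at position -52, counted from the start site. Six3 has a MEIS site whose first base is at -139. The Foxp1 window has the homeodomain core at -240 and a MEIS site, on the opposite strand, at -151. The other windows, that of Isl1 included, held none of the 5 strings. A match describes the letters of the window and was not tested as a binding site, and the lack of a match says only that these letters are not in that window.

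Other transcription factors of the striatal lineage were also lower. Of 12 other striatal lineage transcription factors, all 12 were tested, 11 had a fitted value below 0, and 3 passed the test, all lower in TSC1-KO (8 without TSC1-KO replicate 3 and 8 with the Y-linked term). Dlx1, a homeodomain factor of ventral forebrain precursors, fell from 146.4, 124.6 and 145.5 TPM in WT to 82.56, 85.85 and 97.01 TPM in TSC1-KO (log2 fold change -0.68, SE 0.0957, adjusted p = 0.0183). Bcl11b, which is required for the maturation of striatal projection neurons and is also expressed in deep cortical layers, fell by 0.56 (SE 0.112, adjusted p = 0.0479), and Sp9, a zinc finger factor of indirect pathway neurons, fell by 0.95 (SE 0.144, adjusted p = 0.0214). Dlx2 had a log2 fold change of -0.49 (SE 0.124, adjusted p = 0.0862).

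The signalling genes of mature striatal projection neurons were all fitted lower, 16 of 16, but 0 passed in edgeR. At an unadjusted p below 0.05, 12 were lower, and DESeq2 and limma each called 4. Without TSC1-KO replicate 3, edgeR called 9 of the 16 as lower, and with the term for Y-linked expression 8. For 12 of them the groups did not overlap, and the median log2 fold change was -0.93. Their summed TPM was 91.2%, 101.2% and 107.6% of the WT mean in WT and 56.0%, 61.1% and 81.0% in TSC1-KO replicates 1, 2 and 3. Within the list the genes with the highest levels differed: Ppp1r1b, the phosphoprotein DARPP-32, had a log2 fold change of -1.13 (SE 0.241, adjusted p = 0.0570), Gng7, a G protein subunit, -0.44 (SE 0.102, adjusted p = 0.0683), Pde10a, a phosphodiesterase, -0.25 (SE 0.0686, adjusted p = 0.105), and Ptpn5, a tyrosine phosphatase, -0.07 (SE 0.117, adjusted p = 0.777). The receptor genes that define the 2 classes were picked out after their values were seen. Drd2 had 8.39, 6.87 and 10.91 TPM in WT and 0.75, 1.05 and 4.12 TPM in TSC1-KO (log2 fold change -2.13, SE 0.489, adjusted p = 0.0683). Drd1a overlapped between the groups, with 14.71, 12.46 and 14.31 TPM in WT and 15.49, 10.38 and 10.27 TPM in TSC1-KO (log2 fold change -0.23, SE 0.160, adjusted p = 0.490). Genes of the direct class did not all change alike, and Pdyn was also picked out after its values were seen. Tac1 and Pdyn, neuropeptide genes of that class, were lower in every TSC1-KO sample than in every WT sample. Their log2 fold changes were -1.74 (SE 0.526, adjusted p = 0.130) and -1.32 (SE 0.373, adjusted p = 0.112). Chrm4, another receptor gene on the list picked out in the same way, overlapped between the groups as Drd1a did, at -0.11 (SE 0.236, adjusted p = 0.846).

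To place the factors beside the level of these neuron genes, each was divided by their summed TPM in the same sample. Because that sum was itself lower in every TSC1-KO sample, the scale raises all genes in TSC1-KO: 60.2% of all genes tested were higher in every TSC1-KO sample on it, and 0.487% were lower. Isl1 was then at 2.03, 1.95 and 3.54 TPM per 100 TPM in WT and at 0.179, 0.449 and 1.88 in TSC1-KO. Isl1, Ebf1, Foxp2, Pbx3, Rarb and Zfp503 remained lower in every TSC1-KO sample than in every WT sample on this scale. Meis1, Meis2 and Six3 overlapped. Foxp1 was at 14.2, 15.2 and 13.9 in WT and at 22.5, 22.7 and 16.9 in TSC1-KO, above the WT range as most genes are on this scale. The sum gives most weight to the genes with the highest levels, Ptpn5, Gng7, Ppp1r1b and Pde10a. Their log2 fold changes were -0.07, -0.44, -1.13 and -0.25. Tac1, on the same list, was at -1.74, beside -1.75 for Ebf1. A factor that remained lower on this scale was therefore not lower than every neuron gene of the list.

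Rarb belongs to the retinoid pathway, whose other genes lay on both sides of 0. Of 16 genes on the list, 14 were in the tables and tested, and Aldh1a1 and Cyp26a1 were not analysed here. Of the 14, 10 were fitted lower and 4 higher, and the median log2 fold change was -0.29. None passed in edgeR; 7 were lower and 1 higher at an unadjusted p below 0.05, 2 were lower with DESeq2 and 0 passed with limma. Without TSC1-KO replicate 3, edgeR called 4 as lower and 1 as higher, and with the Y-linked term 3 as lower. Crabp1, which binds retinoic acid in the cytoplasm, had 73.27, 99.47 and 102.0 TPM in WT and 12.46, 14.56 and 56.11 TPM in TSC1-KO (log2 fold change -1.74, SE 0.471, adjusted p = 0.103). Rxrb, a partner of the retinoic acid receptors, and Aldh1a2, an enzyme of retinoic acid synthesis, were at 0.04 (SE 0.102) and -0.33 (SE 0.287). The receptor genes Rara and Rarg were at 0.01 and -0.00 (adjusted p = 0.974 and 0.996). Rxrg, the striatal partner receptor, was picked out after its values were seen: it had 30.36, 33.98 and 33.39 TPM in WT and 2.50, 6.39 and 17.26 TPM in TSC1-KO (log2 fold change -1.91, SE 0.479, adjusted p = 0.0857).

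**Figure D5:**
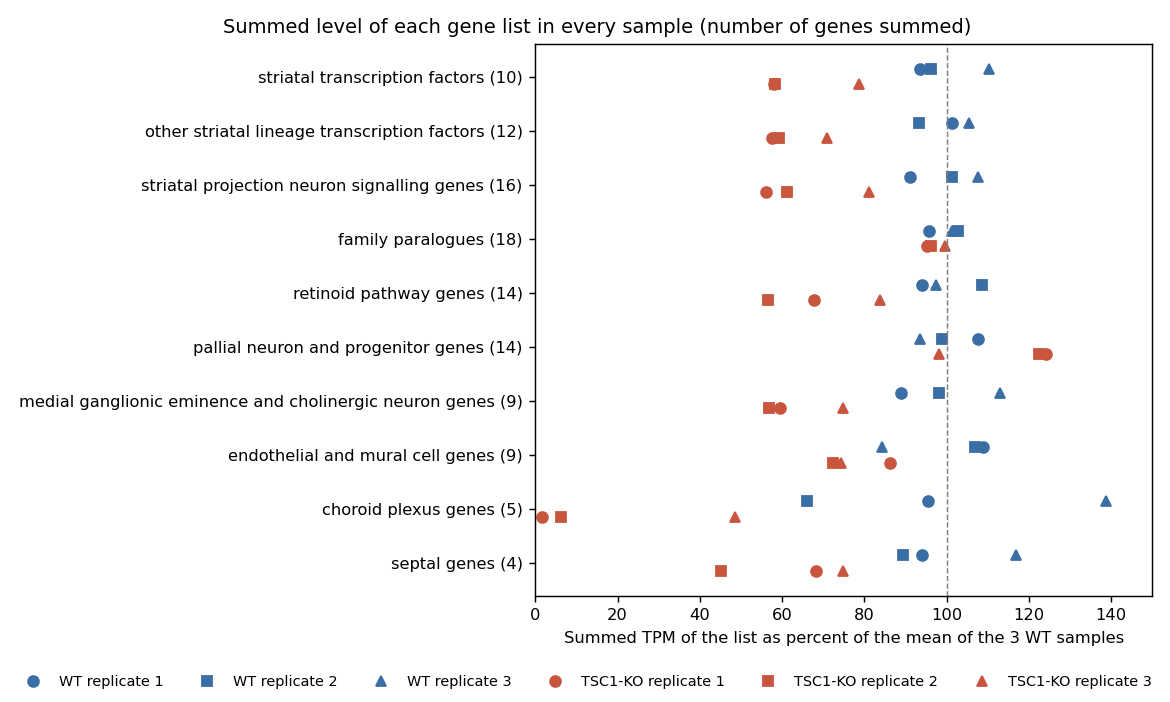
Summed TPM of each gene list in every sample as percent of the mean of the 3 WT samples (horizontal axis); the number of genes summed is in brackets. In TSC1-KO, the striatal, retinoid, medial ganglionic eminence, septal and choroid plexus lists lie below the WT samples, with replicate 3 nearest to them. The endothelial and mural list overlaps the WT samples. The family paralogues lie near 100% and the pallial list lies above 120% in TSC1-KO replicates 1 and 2.

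Genes of other cell types and regions also differed between the samples, and their part in the differences of the factors was not tested. The 5 choroid plexus genes summed to 95.4%, 65.9% and 138.7% of their WT mean in WT and to 1.69%, 6.17% and 48.6% in TSC1-KO replicates 1, 2 and 3, the same order of TSC1-KO samples as for Isl1. Ttr, the transport protein that marks this epithelium, was at 1652, 1142 and 2411 TPM in WT and at 23.88, 102.4 and 842.7 TPM in TSC1-KO (adjusted p = 0.220). Folr1, Aqp1 and Otx2, the next genes of the list by level, had log2 fold changes of -2.06, -1.89 and -1.52, and 0 of the 5 genes passed the edgeR test (5 at an unadjusted p below 0.05, 3 with DESeq2 and 2 with limma, all lower). Without TSC1-KO replicate 3, edgeR called 4 of the 5 as lower, and with the term for Y-linked expression 4. The 4 septal genes summed to 89.3% to 116.7% of the WT mean in WT and to 68.3%, 45.2% and 74.7% in TSC1-KO, with log2 fold changes of -0.91 for Zic1 and -0.30 for Zic2, and 0 passed in edgeR (3 at an unadjusted p below 0.05, 3 with DESeq2 and 0 with limma, all lower). In edgeR, 1 septal gene was called as lower without TSC1-KO replicate 3, and 1 with the Y-linked term.

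The summed level of genes of cortical neurons and their progenitors was above the WT range in 2 of the 3 TSC1-KO samples. Of 16 pallial neuron and progenitor genes, 14 were in the tables, Emx2 and Rorb were not analysed here, and 13 were tested. Of these, 9 were fitted higher and 4 lower, and the median log2 fold change was 0.16. None passed in edgeR; 2 were higher at an unadjusted p below 0.05, 1 was higher with DESeq2 and 0 passed with limma. In edgeR, 2 were called as higher without TSC1-KO replicate 3 and 2 with the Y-linked term. The summed TPM was 107.5%, 98.9% and 93.6% of the WT mean in WT, and 124.2%, 122.4% and 98.1% in TSC1-KO replicates 1, 2 and 3. Neurod6 had a log2 fold change of 0.20 (SE 0.104, adjusted p = 0.345), and Neurod2 and Tbr1 of 0.00 and -0.01.

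Isl1 is also a factor of cholinergic neurons, which arise with other interneurons in the medial ganglionic eminence. Of 9 genes of these cells, 6 were tested, all 6 were fitted lower and 1 passed, Lhx6, a factor of cortical and striatal interneurons, which fell by 0.54 (SE 0.0798, adjusted p = 0.0203). Of the list, 5 were called as lower without TSC1-KO replicate 3, and 2 with the Y-linked term. Their summed TPM was 59.5%, 56.7% and 74.9% of the WT mean in TSC1-KO. Lhx8, which acts with Isl1 in cholinergic neurons, was at 2.59, 4.64 and 10.04 TPM in WT and at 0, 0.10 and 5.42 TPM in TSC1-KO, and Nkx2-1 at 5.91, 5.67 and 11.45 and at 1.10, 1.24 and 7.05 TPM. In both genes TSC1-KO replicate 3 was inside the WT range. Chat, the enzyme that makes acetylcholine, was at most 0.20 TPM in any sample, and Slc18a3, the vesicular transporter, at most 1.73 TPM.

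The genes whose pattern over the 6 samples was most like that of Isl1 were Krt18, Nexn and Tac1, with root mean square differences of 0.457, 0.466 and 0.488 log2 units against 1.78 for Isl1 around its own mean. Those most like Ebf1 were Crabp1, Tac1 and Nexn, at 0.117, 0.160 and 0.163 against 1.33. Tac1, the substance P precursor of direct pathway neurons, had 48.48, 70.40 and 71.44 TPM in WT and 6.26, 10.58 and 40.51 TPM in TSC1-KO. Krt18, a keratin, had 4.34, 2.69 and 5.71 TPM in WT and 0.14, 0.15 and 2.67 TPM in TSC1-KO, and Nexn, an actin binding protein, 12.26, 11.69 and 15.62 TPM and 1.33, 1.87 and 9.39 TPM. The likeness describes 6 libraries and carries no test.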

How the data were processed

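Telencephalon mRNA of 3 WT and 3 TSC1-KO mice was analysed, grouped by the genotype labels and numbered by the titles. As the methods and labels state, paired reads were trimmed by the authors, mapped with MapSplice2 on the mm10 genome and assigned to RefSeq genes by RSEM 1.2.12. The deposited expected counts are RSEM's estimates of the reads of each gene, not normalized. The deposited TPM are scaled by RSEM for effective length and depth. The deposited FPKM and the lengths that the authors deposited beside them are from RSEM too, and FPKM was not used.

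Expected counts were rounded, and edgeR 4.0.16 under R 4.3.3 was run on them (filterByExpr, TMM, quasi-likelihood test, Benjamini-Hochberg over all 13969 genes, called below 0.05). Alternatives were RLE, upper quartile, DESeq2 1.42.0, limma 3.58.1 on log2(TPM + 1), other filters, an effective length offset, a replicate block, each sample left out, and, added after seeing the data, a term for Y-linked expression and the samples without it. Single ratios were compared by exact permutation tests. All samples of a group differed beyond sampling noise (chi-square per degree of freedom 5.68 to 17.4). Positions are from RefSeq on GRCm38.p6, counted from 1. All 10 factors had whole expected counts in all samples, to the 2 decimals deposited.

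The members and gene lists were chosen with earlier results of these data known. Named genes are all members, the 4 genes with the highest mean TPM of each list and every called list gene. The 3 genes nearest in pattern to Isl1 and Ebf1 are also named. Drd1a, Drd2, Pdyn, Chrm4, Rxrg, Rara, Rarg, Chat and Six5 were added after their values were seen. Some genes that this rule names are not reported here. On simulated counts of 22651 genes with 200 changed by 1.5 log2 units, edgeR recovered 100% with 5.21% false calls, DESeq2 100% with 6.54% and limma 100% with 6.10%. The simulation gave every gene the same dispersion and changed only genes with higher counts. It does not measure recovery at the spread of the factors, whose coefficient of variation reached 122.7% for Isl1 in TSC1-KO.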

Additional observations from a re-analysis of the deposited data

How the results depend on the processing

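All 160 fitted values of the 10 factors under the 16 alternatives were below 0. The number of factors called depended on the fit. It was 1 with upper quartile normalization, which kept Meis2 and put Foxp2 at an adjusted p of 0.0502, 8 with Y-linked expression as a term, 9 in the samples without Y-linked expression, and 0 to 9 when 1 sample was left out. It was 0 without WT replicate 2, WT replicate 3, TSC1-KO replicate 1 or TSC1-KO replicate 2, with 6 to 8 factors lower at an unadjusted p below 0.05 where 6.04% to 6.89% of all genes were, and 9 without TSC1-KO replicate 3. The cause was not tested. Over all genes, 212 were called, against 637 with DESeq2, 346 with no filter, 691 with the Y-linked term, 434 in the samples without Y-linked expression and 29 (without WT replicate 2) to 799 (without TSC1-KO replicate 3) when 1 sample was left out. Foxp2 was called in 11 and Meis2 in 12 of the 16 alternatives. The difference in the Foxp2 to Foxp1 ratio ran from -1.15 to -0.80 when 1 sample was left out. The difference in the Meis1 to Meis2 ratio, -0.56 with all samples, was -0.29 without TSC1-KO replicate 2 and -0.95 without TSC1-KO replicate 3.

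With the replicate number as a block, 8 factors and 551 genes were called, all factors but Foxp1 (adjusted p = 0.249) and Meis1 (adjusted p = 0.0874). The numbers were not shown to pair the samples, since deviations from the group means correlated at 0.267, -0.133 and 0.318 for replicates 1, 2 and 3. Isl1 and Six3 rest on as few as 10 and 17 expected counts in a TSC1-KO sample, which limits the precision of their fold changes.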

Other observations

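Some lists of neighbouring tissues are not described above. Of 9 endothelial and mural cell genes, 8 were fitted lower in TSC1-KO and 0 passed edgeR's test (6 lower at an unadjusted p below 0.05, 3 with DESeq2 and 0 with limma; 1 in edgeR without TSC1-KO replicate 3 and 2 with the Y-linked term), with a median log2 fold change of -0.48. Their summed TPM was 86.1%, 72.4% and 74.3% of the WT mean in TSC1-KO replicates 1, 2 and 3 and 84.3% in WT replicate 3. Here TSC1-KO replicate 3 was not the highest of its group. It was the highest for 9 of the 10 striatal factors and for 30.7% of all genes tested. Cldn5, a tight junction protein of brain vessels, had the highest level of the list, with a log2 fold change of -0.49 (SE 0.111, adjusted p = 0.0670), followed by Rgs5, Cdh5 and Kdr at -0.32, -0.57 and -0.48.

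Of 4 olfactory bulb neuron genes, Doc2g was not analysed here and 2 were tested. Th, the enzyme of dopamine synthesis, fell by 3.10 on the log2 scale (SE 0.563, adjusted p = 0.0391), from 4.04, 2.22 and 2.20 TPM in WT to 0.11, 0.11 and 0.70 TPM in TSC1-KO; 1 gene was also called without TSC1-KO replicate 3 and with the Y-linked term. Cdhr1, a cadherin of mitral cells, was at 36.44 TPM in WT replicate 1 and at 5.95 and 8.26 TPM in the other WT samples, and at 4.37, 3.58 and 7.95 TPM in TSC1-KO, and Tbx21 was at most 1.79 TPM. Of 7 thalamic and hypothalamic genes, Tcf7l2 was not analysed here, 2 were tested and 0 passed in edgeR, DESeq2 or limma, with 0 at an unadjusted p below 0.05 and 0 in edgeR without TSC1-KO replicate 3 or with the Y-linked term. Their summed TPM was between 61.0% and 143.8% of the WT mean in WT and between 80.3% and 122.6% in TSC1-KO, and Lhx9, Pomc, Otp and Hcrt, the genes with the highest levels, were at most 7.06, 2.36, 1.67 and 1.13 TPM.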
